A study of Mus musculus with 37 samples.

Results

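A set of 39 genes of the cell division cycle was followed by symbol through the deposited gene tables, which list 32108 genes, and all 39 were found and passed the low-count filter of every fit. The data are RNA from podocytes, the epithelial cells that cover the capillaries of the kidney filter, obtained by translating ribosome affinity purification (TRAP), which pulls down ribosomes made in 1 cell type together with the messages on them. All mice were C57BL/6. In the type 2 model the controls were eNOS-/- and the diabetic mice eNOS-/- db/db, so that both arms lack endothelial nitric oxide synthase, and TRAP libraries came from animals aged 3 months (5 control, 5 diabetic) and 6 months (4 control, 3 diabetic). In the type 1 model the diabetic mice had received streptozotocin (STZ), a beta cell toxin, and the controls none, with libraries at 3 weeks (age 3 months, 4 control, 5 diabetic) and at 24 weeks (age 8 months, 5 control, 5 diabetic). No genotype is labelled for the type 1 mice. One library of total RNA from an eNOS-/- whole kidney at 3 months completes the set. The deposited tables are named for podocin Cre, a driver active in podocytes. STZ as a toxin and the diabetes it causes cannot be told apart in these groups, and the 3-week and 24-week type 1 mice also differ in age. Since the labels do not tie each library to an animal of its own, the p-values rest on the spread between libraries, which may be technical.

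As background, D-type cyclins bind cyclin-dependent kinases (CDKs) in G1 and release E2F transcription factors, which switch on the genes for replication origins, the MCM helicase and the DNA building blocks. A later wave of transcription supplies the cyclins, kinases, kinetochore proteins and motors of mitosis, and their messages are low in resting cells. Mature podocytes are known as cells that have left the cycle and hardly divide, while other cells of the glomerulus and tubule can proliferate, and G1 genes such as the D cyclins are also used outside division.

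The TRAP libraries held 6702120 to 37786025 gene counts each, and 18S ribosomal RNA took 1.43% to 18.4% of them. Counts of the cell cycle genes were low. Leaving aside Ccnd1, Ccnd2 and E2f1, the median count over the other 36 genes was 17.5 to 188.5 per library, and 0 to 9 of the 39 genes had no count in a library. Values below are counts scaled to the library's total (CPM) unless another scale is named. Changes are log2 ratios of diabetic over control from edgeR's quasi-likelihood test. Their standard error (SE) was derived from that test's F statistic, as the size of the change over the square root of F. A gene is said to rise or fall where its Benjamini-Hochberg adjusted p over all genes tested was under 0.05.

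The genes spanned a wide range of level in control podocytes. On the authors' FPKM scale, which allows for gene length, the 3-month eNOS-/- controls held most Ccnd1, encoding cyclin D1, at 38.9 ± 12.7 (SD, n = 5), and next E2f1, encoding the S-phase transcription factor E2F1, at 33.9 ± 7.66. These 2 levels overlap within their spread. The replication clamp gene Pcna (5.97 ± 1.13), the ribonucleotide reductase subunit gene Rrm1 (4.76 ± 0.469), the nuclear import receptor gene Kpna2 (4.27 ± 0.801) and the helicase gene Mcm4 (3.65 ± 0.886) followed, each within the spread of the next. Ccnd2, encoding cyclin D2, stood at 2.48 ± 0.54 FPKM and Mcm3 at 0.886 ± 0.222 FPKM. The proliferation marker Mki67 reached 0.694 ± 0.159 FPKM, the DNA topoisomerase gene Top2a 0.27 ± 0.09 FPKM, and the checkpoint kinase gene Bub1 was lowest at 0.037 ± 0.009 FPKM.

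In GRCm38 coordinates, Ccnd1 (ENSMUSG00000070348) lies at chr7:144929931-144939869, Ccnd2 (ENSMUSG00000000184) at chr6:127125162-127152193, E2f1 (ENSMUSG00000027490) at chr2:154559407-154569892, Mcm3 (ENSMUSG00000041859) at chr1:20802968-20820312 and Pcna (ENSMUSG00000027342) at chr2:132249162-132253314. Top2a (ENSMUSG00000020914) lies at chr11:98992943-99024189, Mki67 (ENSMUSG00000031004) at chr7:135689788-135716379, Kpna2 (ENSMUSG00000018362) at chr11:106988629-106999541 and Ccnb1 (ENSMUSG00000041431) at chr13:100778650-100786570, all of these on the minus strand, while Rrm2 (ENSMUSG00000020649) is on the plus strand at chr12:24708241-24714146. Exons of 13 of the genes overlap those of a gene on the opposite strand: Ccnd1, Ccnd2, Ccne2, Mcm7, Tk1, Ccna2, Plk1, Cdca8, Cdc20, Ube2c, Kif20a, Prc1 and Nusap1. The sources used here do not give the strand setting of the counting, so reads of these 13 and of their partners may be mixed.

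Promoters of genes that rose in at least 1 comparison are shown because mitotic genes are known to share short motifs there. RefSeq promoter sequences (GRCm38.p6, 250 bases before to 50 bases after the start) were matched for 31 of the 39 genes. Each window is written 5′ to 3′ on the gene's strand, with capitals marking every match, on either strand, to CCAAT, to the cell cycle homology region (CHR) letters TTTGAA or TTCGAA or TTTAAA, or to the E2F letters TTTCCCGC or TTTCGCGC or TTTGCCGC or TTTGGCGC. The windows belong to the mitotic cyclin gene Ccnb1 (chr13:100786437-100786736, minus strand), Top2a (chr11:99024140-99024439, minus), Mki67 (chr7:135716330-135716629, minus), the helicase gene Mcm3 (chr1:20820263-20820562, minus) and Rrm2 (chr12:24708004-24708303, plus).
Ccnb1: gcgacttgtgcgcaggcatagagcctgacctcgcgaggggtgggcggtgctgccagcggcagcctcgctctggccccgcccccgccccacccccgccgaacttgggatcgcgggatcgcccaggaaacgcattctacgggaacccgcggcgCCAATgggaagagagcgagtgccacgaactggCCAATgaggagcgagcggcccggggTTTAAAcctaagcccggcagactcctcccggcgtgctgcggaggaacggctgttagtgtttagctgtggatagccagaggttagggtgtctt
Top2a: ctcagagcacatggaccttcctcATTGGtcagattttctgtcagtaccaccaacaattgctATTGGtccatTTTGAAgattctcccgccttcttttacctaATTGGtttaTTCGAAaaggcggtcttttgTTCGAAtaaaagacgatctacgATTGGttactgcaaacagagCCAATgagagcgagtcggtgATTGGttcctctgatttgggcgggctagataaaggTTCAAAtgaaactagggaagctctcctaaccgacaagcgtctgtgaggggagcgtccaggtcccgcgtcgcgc
Mki67: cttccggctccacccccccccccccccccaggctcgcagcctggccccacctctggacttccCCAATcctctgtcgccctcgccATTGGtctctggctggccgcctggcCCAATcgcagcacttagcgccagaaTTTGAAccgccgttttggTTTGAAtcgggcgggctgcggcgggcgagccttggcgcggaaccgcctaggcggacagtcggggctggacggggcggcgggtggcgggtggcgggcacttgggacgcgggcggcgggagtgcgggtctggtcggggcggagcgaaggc
Mcm3: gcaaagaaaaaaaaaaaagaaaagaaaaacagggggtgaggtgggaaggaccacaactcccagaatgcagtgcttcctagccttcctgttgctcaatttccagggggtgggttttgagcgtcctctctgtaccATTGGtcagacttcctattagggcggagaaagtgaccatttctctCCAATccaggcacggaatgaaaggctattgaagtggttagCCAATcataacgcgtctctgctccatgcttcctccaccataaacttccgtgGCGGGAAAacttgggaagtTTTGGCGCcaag
Rrm2: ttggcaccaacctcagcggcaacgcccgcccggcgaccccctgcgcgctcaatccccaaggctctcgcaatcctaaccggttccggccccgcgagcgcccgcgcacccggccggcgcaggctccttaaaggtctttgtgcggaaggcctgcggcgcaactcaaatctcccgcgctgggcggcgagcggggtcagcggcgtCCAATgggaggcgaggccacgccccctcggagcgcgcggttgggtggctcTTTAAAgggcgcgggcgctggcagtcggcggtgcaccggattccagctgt
The Ccnb1 window held CCAAT at positions -99 and -67 and a CHR match at -42, counted from the annotated start. Top2a held 6 CCAAT and 4 CHR matches, and Mki67 3 CCAAT and 2 CHR matches. Mcm3 was the only one of these 5 with E2F matches, at 20 and 39, next to 3 CCAAT matches, and Rrm2 held CCAAT at -50 and a CHR match at 1. No match overlapped one of another motif in these windows. Among the 31 genes, 25 (80.6%) held CCAAT, 24 (77.4%) a CHR match and 5 (16.1%) an E2F match, against 37.4%, 28.8% and 2.26% of the 32851 promoters in the table. The 31 genes had 33 promoter entries, and each gene was counted by its highest number of matches. All promoters were counted entry by entry, so the 2 shares are not fully alike. CCAAT and CHR letters stood together in 21 (67.7%), against 11.3% of all. The E2F letters were in 4 of 5 matched MCM genes, in Mcm7 through only 1 of its entries. They were in none of the 4 matched kinetochore and checkpoint promoters, which all held both CCAAT and CHR letters. A match is a description of letters, not a binding site or a cause.

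In the type 2 model at 3 months none of the 39 genes passed the test. The log2 change was positive for 38 of 39 genes, against 54% of all genes tested, and its median was 0.87, against 0.04 over all genes. edgeR called 0 of the 39, where it called 3.99% of all genes (2.03% higher and 1.96% lower). At an unadjusted p under 0.05 there were 16, all of them higher, against 8.8% of all genes higher and 7.38% lower, and DESeq2 called 5, namely Aurkb, Ccna2, Plk1, Prc1 and Top2a. The shares of all genes called, here and below, are edgeR's. None is given for DESeq2, so its counts of genes have no background beside them. Every diabetic library was above every control for 3 genes, Mcm2, Aurka and Top2a, against 4.43% of all genes with a mean of at least 0.5 CPM. The 5 genes with the lowest p were Top2a (log2 change 1.67, SE 0.51, adjusted p = 0.0755 by edgeR), Ccna2 (1.48, SE 0.49, 0.106), Plk1 (2.09, SE 0.73, 0.129), Prc1 (1.88, SE 0.67, 0.138) and Rrm2 (1.36, SE 0.49, 0.146). Much of the size came from diabetic libraries 4 and 5. Without them the median fell to 0.43, 35 genes were positive, and Top2a stood at 0.60 (adjusted p = 0.636 by edgeR).

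In the type 2 model at 6 months, 14 of the 39 genes rose and 1 fell. Those that rose were Ccnd2, the helicase genes Mcm2, Mcm3 and Mcm4, the mitotic cyclin gene Ccna2, the kinase gene Aurkb, all 4 kinetochore and checkpoint genes (Bub1, Bub1b, Cenpe and Cenpf), the spindle genes Kif11 and Tpx2, and Mki67 and Top2a, while E2f1 fell. edgeR called 22.9% of all genes in this comparison (11.2% higher and 11.7% lower), against 14 of 39 higher and 1 of 39 lower here. The median log2 change was 1.21, against -0.01 over all genes. All 3 diabetic libraries were above all 4 controls for 20 of the genes, as they were for 22% of all genes with a mean of at least 0.5 CPM. The calls depended on single libraries. Without control library 4 edgeR called 6 higher, and Aurkb, Bub1, Bub1b, Ccna2, Cenpe, Cenpf, Mcm2 and Mcm4 were lost. Without diabetic library 3 it called 8 higher, and Top2a was among those lost (1.91, adjusted p = 0.0594). Diabetic library 3 had the fewest counts of all TRAP libraries, 6702120, with counts for 16822 genes and 3 of the 39 at 0. Ccnd2, Mcm3, Mki67 and Tpx2 were called in every setting tried.

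In the type 1 model at 3 weeks, 14 of the 39 genes rose and none fell. They were both D cyclin genes, 5 of the 6 MCM genes (Mcm2 to Mcm6), Rrm2, Ccnb1, the kinetochore motor gene Cenpe, the midzone gene Prc1, Kpna2, Mki67 and Top2a. edgeR called 6.5% of all genes here, 3.78% higher and 2.72% lower. At an unadjusted p under 0.05, 22 of the 39 were higher and none lower, against 11.6% and 9.25% of all genes, and 37 changes were positive. The median log2 change was 1.36, against 0.00 over all genes. All 5 diabetic libraries were above all 4 controls for 19 genes, against 5.42% of all genes with a mean of at least 0.5 CPM. Leaving out 1 library at a time left 11 to 16 calls, and only Cenpe, Mcm4 and Mcm5 were lost. Diabetic libraries 1, 2 and 3 had lower podocyte and higher macrophage marker sums than libraries 4 and 5, as given below, and without these 3 edgeR called 3 genes, Kpna2, Mki67 and Top2a. That setting was chosen after seeing the data and leaves 2 diabetic libraries. The median change in it was 1.32.

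At 24 weeks of the type 1 model none of the 39 genes passed the test, in a comparison in which edgeR called 0.897% of all genes. Changes were positive for 26 of the 39, with a median of 0.18, against -0.01 over all genes. At an unadjusted p under 0.05, 3 were higher and 1 lower, against 6.28% and 4.44% of all genes, DESeq2 called 2 (Ccnd1 and Ccnd2), and no gene had all diabetic libraries above all controls, which 1.82% of all genes with a mean of at least 0.5 CPM did. The lowest p belonged to Ccnd2 (log2 change 0.77, SE 0.20, adjusted p = 0.0659 by edgeR), Ccnd1 (0.85, SE 0.26, 0.142), E2f1 (-0.67, SE 0.29, 0.373) and Pcna (0.56, SE 0.24, 0.377). Bub1, the next, had no count in any of the 5 controls and reached 0 to 0.536 CPM in the diabetic libraries (adjusted p = 0.471), so no fold is given.

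**Figure D1:**
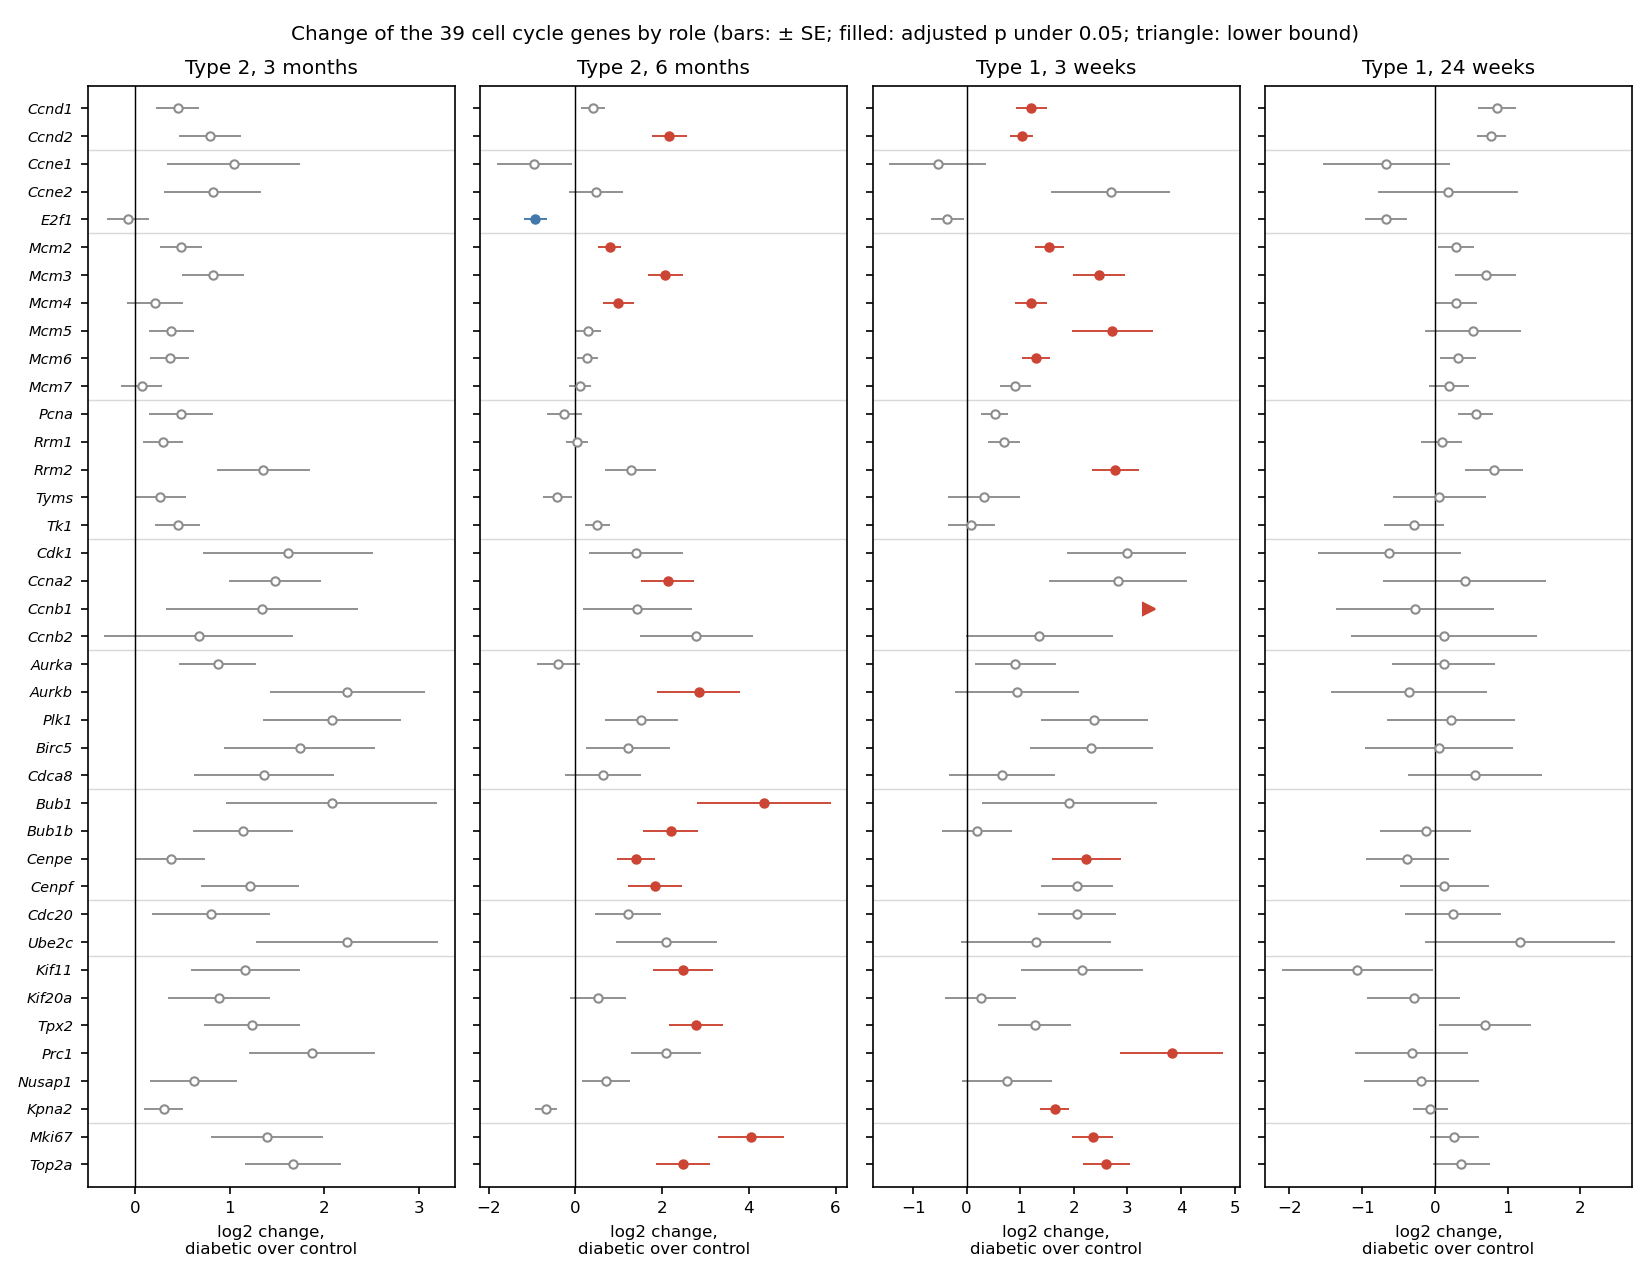
Log2 change of diabetic over control (x axis) for each of the 39 genes (y axis, grouped by role) in the 4 comparisons, with bars of 1 SE; filled points passed the test (red higher, blue lower). The panels have different x ranges, the triangle is the lower bound of Ccnb1, whose controls had no counts, and Bub1 at 24 weeks is not drawn for the same reason. Filled points, the triangle included, number 0, 15, 14 and 0 from left to right.

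The D cyclin genes start the G1 program and were the most abundant cyclin messages among the 39 genes per length. Ccnd2 in the type 2 model at 6 months measured 14.7, 23.9, 27.0 and 25.7 CPM in the controls and 107, 69.4 and 190 CPM in the diabetic libraries, a log2 change of 2.17 (SE 0.40, adjusted p = 0.00167 by edgeR). Its type 1 values at 3 weeks were 21.2, 23.1, 31.1 and 24.6 CPM in controls and 60.2, 72.6, 82.0, 34.7 and 33.8 CPM in diabetic libraries, a change of 1.03 (SE 0.21, adjusted p = 0.00536 by edgeR). The groups did not overlap in either case. Ccnd2 at 3 months of the type 2 model was 18.8, 19.7, 30.8, 26.3 and 21.05 CPM against 28.8, 24.2, 23.3, 94.6 and 48.6 CPM (0.80, SE 0.33, adjusted p = 0.225), and at 24 weeks of the type 1 model 25.2, 22.8, 28.4, 40.2 and 26.4 against 58.8, 47.1, 51.5, 49.3 and 38.2 CPM. In each of these, 1 or more diabetic libraries lay within the control range.

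Ccnd1 rose at 3 weeks of the type 1 model, from 119, 177, 200 and 119 CPM to 480, 541, 467, 255 and 246 CPM (log2 change 1.21, SE 0.28, adjusted p = 0.0119 by edgeR), with no overlap. At 24 weeks it was 152, 207, 211, 243 and 137 CPM in controls and 579, 294, 338, 203 and 329 CPM in diabetic libraries, of which 1 lay within the control range. The type 2 groups overlapped at both ages. Ccnd1 at 3 months measured 111, 107, 127, 185 and 216 CPM in controls and 210, 211, 190, 167 and 300 CPM in diabetic libraries (0.45, SE 0.23, adjusted p = 0.344), and at 6 months 114, 171, 123 and 143 against 242, 244 and 149 CPM (0.40, SE 0.28, adjusted p = 0.308).

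E2f1 was the only one of the 39 to fall. Its control libraries at 6 months of the type 2 model held 81.6, 86.8, 60.8 and 68.5 CPM and the diabetic ones 46.2, 62.4 and 28.5 CPM, a log2 change of -0.92 (SE 0.27, adjusted p = 0.0225 by edgeR). The call was lost without control library 1 and without diabetic library 1 or 3. The podocyte marker sum was also lower in the 6-month type 2 diabetic libraries, and E2f1 was far higher in TRAP than in whole kidney, as given below. The part of podocyte RNA content in the fall of E2f1 was not tested. E2f1 did not pass the test elsewhere, at -0.07 (3 months), -0.36 (3 weeks) and -0.67 (24 weeks). The cyclin E genes Ccne1 and Ccne2, whose products drive entry into S phase, passed nowhere, and Ccne1 ranged from -0.95 at 6 months to 1.04 at 3 months. Ccne2 at 3 weeks had the larger change, 2.69 (SE 1.11, adjusted p = 0.16), on levels of 0, 0, 0.143 and 1.204 CPM in controls and 4.09, 2.97, 2.95, 0.206 and 1.87 CPM in diabetic libraries.

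The 6 MCM genes encode the ring of the replicative helicase that is loaded at origins. Mcm3 in the type 2 model at 6 months was 0.887, 2.38, 3.16 and 3.12 CPM in controls and 9.99, 9.59 and 16.3 CPM in diabetic libraries (log2 change 2.07, SE 0.40, adjusted p = 0.00179 by edgeR), without overlap. In the type 1 model at 3 weeks it was 0.875, 2.06, 1.57 and 3.66 CPM against 23.8, 13.0, 13.3, 2.74 and 10.03 CPM (2.47, SE 0.48, adjusted p = 0.00317), and diabetic library 4 lay within the control range. At 3 months Mcm3 measured 3.93, 2.11, 4.07, 2.82 and 3.70 CPM in controls and 5.65, 3.41, 5.48, 11.2 and 6.00 CPM in diabetic libraries (0.82, SE 0.33, adjusted p = 0.195). Those groups overlapped through 1 diabetic library. At 24 weeks the controls held 2.93, 2.60, 2.62, 4.95 and 5.70 CPM and the diabetic libraries 8.68, 4.35, 6.76, 5.71 and 5.04 CPM (0.70, SE 0.42, adjusted p = 0.621), again with overlap.

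Of the 6 MCM genes, 5 rose at 3 weeks of the type 1 model and 3 at 6 months of the type 2 model. Mcm2 at 3 weeks went from 5.99, 4.71, 11.1 and 6.28 CPM to 31.5, 26.7, 25.9, 14.5 and 14.2 CPM (1.54, SE 0.27, adjusted p = 0.00139 by edgeR). Mcm5 (2.72, adjusted p = 0.0332), Mcm6 (1.30, adjusted p = 0.00526) and Mcm4 (1.21, adjusted p = 0.0179) rose as well. Mcm7 did not pass (0.91, adjusted p = 0.0662), although its diabetic libraries, at 16 to 31.4 CPM, all lay above its controls, at 6.67 to 15.7 CPM. At 6 months Mcm2 rose by 0.79 (SE 0.27, adjusted p = 0.0388). Mcm4 had an adjusted p of 0.0494 there that rested on 1 library: it was 11.2, 11.4, 10.9 and 11.8 CPM in controls and 12.6, 51.2 and 14.3 CPM in diabetic libraries, and without the second of these the change was -0.02 (adjusted p = 0.963). Mcm5, Mcm6 and Mcm7 at 6 months changed by 0.30, 0.28 and 0.11 and did not pass.

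Of the 5 genes for DNA precursors and the sliding clamp, Rrm2 passed the test, at 3 weeks of the type 1 model, and the other 4 passed nowhere. Rrm2 encodes the cell cycle regulated subunit of ribonucleotide reductase. It went from 1.62, 3.32, 3.07 and 1.99 CPM in controls to 26.9, 21.5, 21.8, 14.1 and 11.1 CPM in diabetic libraries (log2 change 2.78, SE 0.44, adjusted p = 0.000666 by edgeR). The lowest diabetic library was above the highest control by more than the range of the controls. Rrm2 at 6 months was 0.946, 2.48, 0.963 and 0.882 CPM against 3.49, 3.01 and 4.92 CPM, also without overlap, but did not pass (1.27, SE 0.59, adjusted p = 0.124). Rrm1, the other subunit, changed by 0.69 at 3 weeks (SE 0.30, adjusted p = 0.184) and by 0.04 at 6 months.

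Pcna, the clamp that holds DNA polymerases on the template, passed nowhere. Its values at 3 months were 14.4, 17.8, 12.7, 10.8 and 15.9 CPM in controls and 19.4, 21.6, 26.3, 26.1 and 13.9 CPM in diabetic libraries. At 6 months they were 11.7, 11.3, 14.5 and 14.2 against 16.3, 18.3 and 1.94 CPM, so that diabetic library 3, the highest in Mki67, was the lowest in Pcna. This library also had the fewest counts of all TRAP libraries, 6702120. At 3 weeks Pcna was 16.7, 13.3, 16.4 and 17.4 CPM against 37.0, 26.8, 26.0, 11.6 and 25.1 CPM, with diabetic library 4 below the controls. At 24 weeks it was 10.7, 7.75, 7.15, 12.03 and 14.03 against 20.7, 17.7, 11.7, 13.3 and 12.8 CPM. The log2 changes were 0.49, -0.26, 0.52 and 0.56 in the same order, with adjusted p of 0.525, 0.679, 0.253 and 0.377 by edgeR. Tyms and Tk1, which make thymidine nucleotides, changed by -0.42 and 0.51 at 6 months and by 0.32 and 0.08 at 3 weeks, none past the test.

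The mitotic kinase gene Cdk1 and its cyclins were near the limit of these libraries. Ccnb1, encoding cyclin B1, had no count in any of the 4 controls at 3 weeks and 53, 37, 38, 20 and 25 counts in the diabetic libraries, or 2.15, 2.39, 2.00, 1.37 and 2.34 CPM. Set against 3 counts per control library, about the 95% upper limit for a count of 0, the diabetic mean is at least 10.6-fold higher (adjusted p = 0.011 by edgeR). That bound leaves out the spread of the diabetic libraries. These 4 controls had counts for 15558 to 16362 genes, against 17598 to 20606 in the other TRAP controls. Diabetic library 4 at 3 weeks had counts for 14320 genes and the others for 18044 to 21050. Each of these controls lacked counts for 4 to 9 of the 39 genes. Type 1 controls at 24 weeks did have Ccnb1 counts, without passing against these (adjusted p = 0.0535 by edgeR, no fold given). Ccna2, encoding cyclin A2, rose at 6 months from 0.177, 0.743, 0.458 and 0.339 CPM to 2.82, 1.99 and 1.79 CPM (log2 change 2.12, SE 0.61, adjusted p = 0.0188). The diabetic libraries were all above the controls for Ccnb1 at 3 weeks and for Ccna2 at 6 months. Cdk1 at 3 weeks was 0, 0.531, 1.21 and 0 CPM in controls and 6.36, 4.39, 3.00, 2.33 and 3.09 CPM in diabetic libraries, also without overlap, yet did not pass (2.99, SE 1.11, adjusted p = 0.113). Ccnb2 passed nowhere, with changes from 0.12 at 24 weeks to 2.79 at 6 months (SE 1.30, adjusted p = 0.126).

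Among the mitotic kinases and the chromosomal passenger genes, which correct chromosome attachment, only Aurkb rose, at 6 months. Its libraries held 0.768, 0.545, 0.0458 and 0.543 CPM in controls and 3.67, 2.95 and 5.67 CPM in diabetic mice (log2 change 2.84, SE 0.95, adjusted p = 0.038 by edgeR). The groups did not overlap, but these are 1 to 16 counts in the controls and 38 to 82 in the diabetic libraries. Plk1 was higher without passing at 3 months (2.09), 6 months (1.52, adjusted p = 0.2) and 3 weeks (2.38, adjusted p = 0.163). Aurka changed by 0.87, -0.39 and 0.91 there, and the passenger genes Birc5 and Cdca8 by 0.64 to 2.33. None of the 5 passed in the type 1 model.

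All 4 kinetochore and spindle checkpoint genes rose at 6 months of the type 2 model, but the calls of Bub1 and Cenpf were lost in most settings tried. Bub1 was called in 4 of 14 and Cenpf in 7 of 16, against 10 of 16 for Cenpe and 12 of 16 for Bub1b. Cenpe, a motor that carries chromosomes to the spindle equator, went from 5.02, 2.92, 2.75 and 3.32 CPM to 10.2, 7.83 and 15.2 CPM (log2 change 1.40, SE 0.44, adjusted p = 0.0281 by edgeR). Bub1b, encoding the checkpoint protein BUBR1, went from 2.72, 2.13, 0.413 and 1.25 CPM to 5.73, 4.26 and 17.3 CPM (2.19, SE 0.63, adjusted p = 0.019). Cenpf went from 3.19, 1.78, 1.10 and 1.39 CPM to 13.3, 2.95 and 7.31 CPM (1.83, SE 0.62, adjusted p = 0.0403). Cenpe and Bub1b separated the groups completely, and Cenpf did not, since diabetic library 2 was below 1 control. Bub1 had 0, 2, 0 and 0 counts in controls and 23, 16 and 0 in diabetic libraries (adjusted p = 0.0471), a ratio of 36.9 in pooled counts with an exact 95% counting interval of 9.56 to 316.

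At 3 weeks of the type 1 model only Cenpe of this group rose. Its controls held 2.83, 2.79, 3.86 and 0 CPM and its diabetic libraries 12.1, 11.9, 13.3, 11.6 and 12.8 CPM (log2 change 2.24, SE 0.64, adjusted p = 0.038 by edgeR). The 5 diabetic libraries lay within 11.6 to 13.3 CPM. Cenpf was 0.673, 6.83, 0.5 and 0.366 CPM against 11.6, 8.26, 9.85, 14.7 and 5.15 CPM (2.06, SE 0.68, adjusted p = 0.0719). One control of Cenpf lay within the diabetic range. Bub1b changed by 0.19 there. Cdc20 and Ube2c, which drive exit from mitosis through the anaphase promoting complex, passed nowhere, with changes of 0.80 and 2.24 at 3 months, 1.204 and 2.10 at 6 months, 2.05 and 1.29 at 3 weeks and 0.25 and 1.17 at 24 weeks.

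Of the 6 spindle and midzone genes, Tpx2 and Kif11 rose at 6 months and Prc1 and Kpna2 at 3 weeks. Tpx2, a spindle assembly factor, rose at 6 months from 0.828, 1.34, 0.504 and 0.814 CPM to 5.73, 5.56 and 10.3 CPM (log2 change 2.78, SE 0.63, adjusted p = 0.0047 by edgeR). Kif11, the motor that separates the spindle poles, rose there from 0.296, 0.496, 0.963 and 1.36 CPM to 2.60, 1.65 and 11.8 CPM (2.48, SE 0.70, adjusted p = 0.0167). Both separated the groups. At 3 weeks Tpx2 changed by 1.27 (adjusted p = 0.304) and Kif11 by 2.15 (adjusted p = 0.298). Prc1, which bundles the midzone microtubules, rose at 3 weeks from 0.673, 0.929, 0.143 and 0 CPM to 7.86, 4.71, 5.16, 11.5 and 5.34 CPM (3.83, SE 0.96, adjusted p = 0.0178). At 6 months Prc1 also separated the groups, with controls at 0 to 1.42 and diabetic libraries at 3.46 to 4.57 CPM, and did not pass (2.09, SE 0.80, adjusted p = 0.0637). Kif20a, a motor of cytokinesis, and Nusap1, a microtubule binding protein, passed nowhere, with changes from -0.29 to 0.89 and from -0.19 to 0.75.

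Kpna2, which encodes an importin that also serves spindle assembly, rose at 3 weeks of the type 1 model and passed nowhere in the type 2 model. At 3 weeks it was 3.03, 2.92, 7.78 and 8.06 CPM in controls and 18.999, 19.5, 19.7, 17.7 and 15.7 CPM in diabetic libraries (log2 change 1.64, SE 0.27, adjusted p = 0.000956 by edgeR). These control levels were themselves low, with a mean of 5.45 CPM against 12.3, 13.2 and 12.8 CPM in the other control groups. In the type 2 model Kpna2 was 11.1, 13.3, 11.4, 9.84 and 15.7 against 14.8, 16.9, 20.6, 16.2 and 12 CPM at 3 months (0.30, adjusted p = 0.522) and 14.5, 10.7, 10.6 and 17.1 against 11.4, 11.01 and 5.97 CPM at 6 months (-0.68, SE 0.26, adjusted p = 0.0612). The type 2 groups overlapped at both ages.

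Mki67, whose product coats mitotic chromosomes and marks cycling cells, had the largest log2 change at 6 months among those of the 39 genes with counts in every control. Its controls held 2.90, 6.34, 5.78 and 4.31 CPM and its diabetic libraries 37.3, 13.6 and 243 CPM (log2 change 4.05, SE 0.75, adjusted p = 0.00206 by edgeR). Every diabetic library exceeded every control, but the size rested on library 3: without it the change was 2.19 (adjusted p = 0.0156). At 3 weeks of the type 1 model Mki67 was 4.85, 12.1, 2.86 and 6.34 CPM in controls and 42.5, 33.7, 45.1, 31.3 and 33.7 CPM in diabetic libraries (2.35, SE 0.38, adjusted p = 0.00075), an even shift without overlap. At 3 months of the type 2 model it was 6.47, 6.58, 9.49, 5.12 and 7.29 CPM against 14.3, 9.93, 6.83, 36.01 and 30.8 CPM (1.39, SE 0.59, adjusted p = 0.242). Diabetic libraries 4 and 5 were high there and library 3 lay in the control range. At 24 weeks it was 4.80, 8.62, 8.28, 18.1 and 8.40 against 15.1, 8.54, 13.6, 14.0 and 6.91 CPM (0.27, SE 0.33, adjusted p = 0.875), with full overlap.

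Top2a, the enzyme that untangles sister chromosomes, followed a similar course. At 3 weeks of the type 1 model it went from 3.64, 3.12, 4.93 and 1.41 CPM to 33.9, 18.4, 19.7, 16.5 and 21.2 CPM (log2 change 2.60, SE 0.44, adjusted p = 0.00113 by edgeR). At 6 months of the type 2 model it went from 1.83, 2.58, 0.321 and 1.76 CPM to 6.67, 7.38 and 18.9 CPM (2.49, SE 0.62, adjusted p = 0.00862). The groups did not overlap in either. At 3 months they did not overlap as well, with 3.10, 2.56, 3.32, 1.63 and 1.58 CPM in controls and 4.10, 3.73, 3.84, 19.3 and 10.9 CPM in diabetic libraries, of which the last 2 were far above the rest. At 24 weeks the values were 2.40, 3.24, 1.06, 5.87 and 3.35 CPM against 4.48, 2.18, 5.61, 5.95 and 2.52 CPM (0.36, SE 0.39, adjusted p = 0.843).

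**Figure D2:**
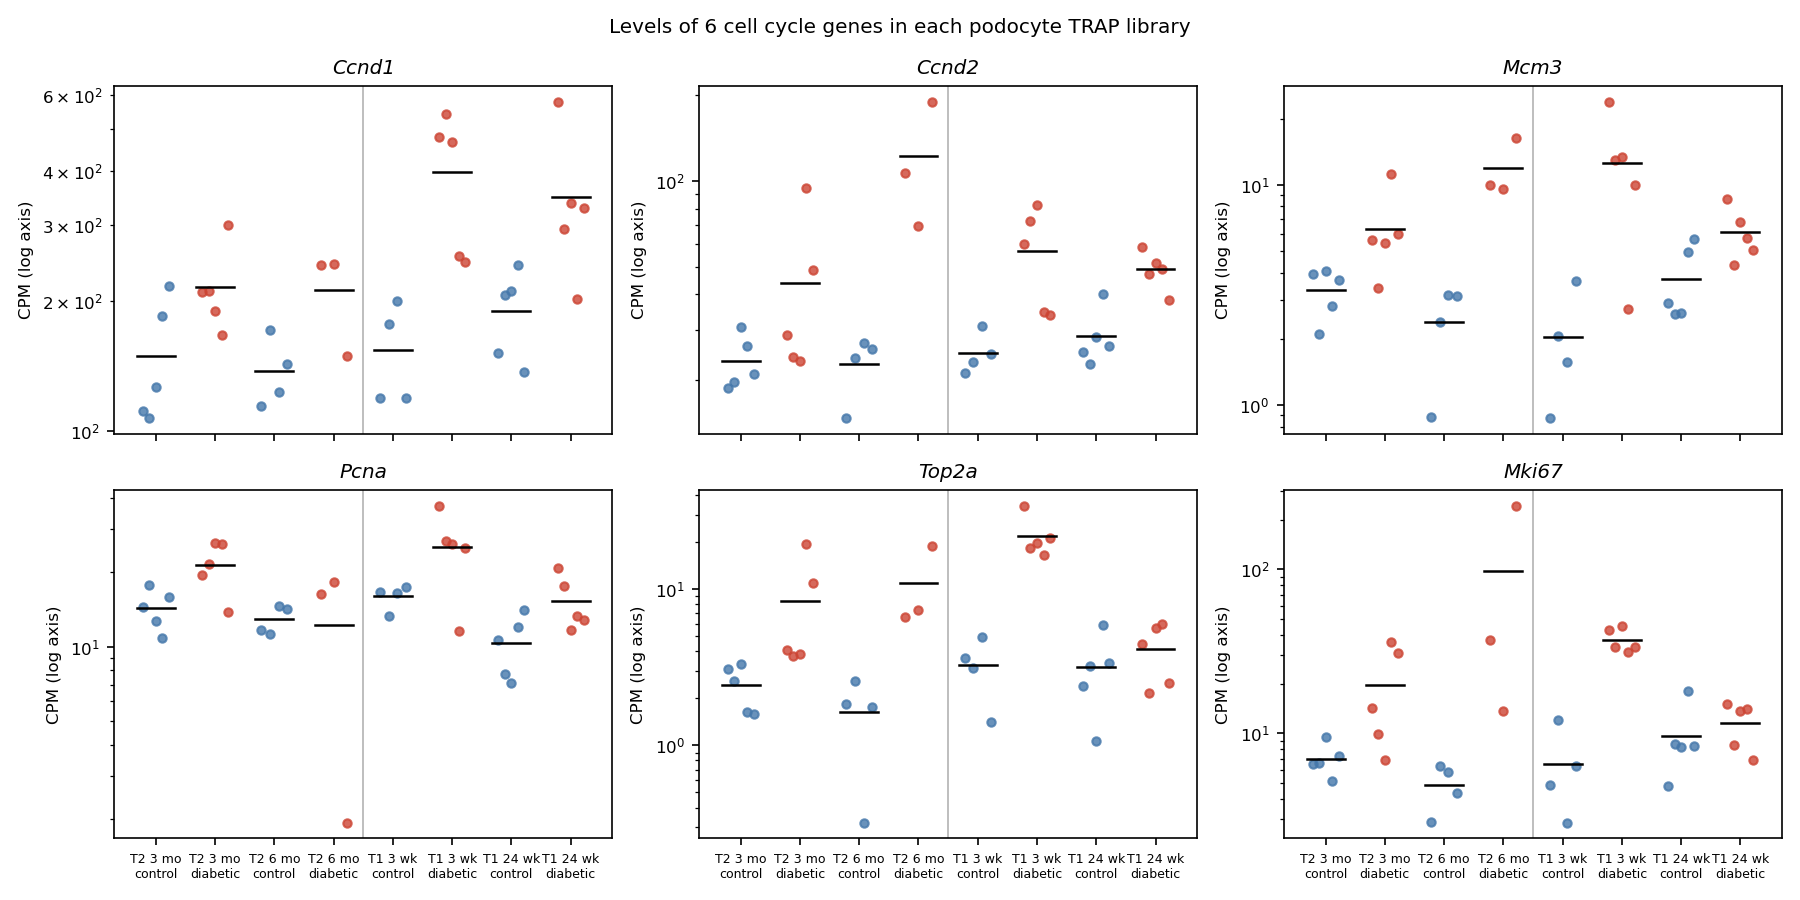
CPM on log axes of Ccnd1, Ccnd2, Mcm3, Pcna, Top2a and Mki67 in each TRAP library (blue control, red diabetic; T2 and T1 are the type 2 and type 1 models); black lines are group means. Top2a and Mki67 separate diabetic from control libraries at 6 months and at 3 weeks, where Mki67 reaches 13.6 to 243 and 31.3 to 45.1 CPM, and overlap at 24 weeks.

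The 6-month type 2 and 3-week type 1 comparisons share no libraries. Of the 14 genes that rose in each, 7 rose in both (50% of each list): Ccnd2, Mcm2, Mcm3, Mcm4, Cenpe, Mki67 and Top2a. Over all 15965 genes tested in both, 277 rose in both, which is 14.9% of those that rose at 6 months and 45.6% of those that rose at 3 weeks. Of the 39, 18 rose in neither. Tests of the difference in effect between the models passed for 1 gene at the early times and 1 at the late times. The early diabetic effects differed for Kpna2, lower in the type 2 model at 3 months than in the type 1 model at 3 weeks by a log2 difference of -1.35 (SE 0.34, adjusted p = 0.04 by edgeR), and 0.94% of all genes were called there. The Kpna2 call was lost in 13 of the fits that left out 1 library, and also without a filter and with the replicate block. Without control library 1 at 3 weeks the difference was -1.161 (adjusted p = 0.109 by edgeR). The late effects differed for Mki67, larger at 6 months than at 24 weeks by 3.78 (SE 0.78, adjusted p = 0.0286), where 0.438% of all genes were called. The Mki67 call was lost in 6 of the fits that left out 1 library. Without diabetic library 3 at 6 months the difference was 1.91 (adjusted p = 0.306 by edgeR).

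Within a model, no gene's diabetic effect was shown to differ between times. In the type 1 model the difference of 24 weeks minus 3 weeks was negative for 37 of 39 genes, with a median of -1.23. edgeR called 0 of the 39 and 0% of all genes, 15 of the 39 were lower and none higher at an unadjusted p under 0.05 (all genes 6.71%, with 2.75% higher and 3.96% lower), and DESeq2 called 5 lower (Kpna2, Top2a, Mki67, Prc1 and Ccnb1). The smallest p belonged to Kpna2 (-1.70, SE 0.36, adjusted p = 0.194 by edgeR), Mki67 (-2.09, SE 0.49, 0.224), Top2a (-2.24, SE 0.57, 0.272), Mcm2 (-1.26, SE 0.36, 0.419) and Ccnb1 (adjusted p = 0.272, no fold given). In the type 2 model, 6 months minus 3 months, edgeR also called 0 of the 39 and 0% of all genes. At an unadjusted p under 0.05, 3 were higher and 2 lower, against 7.88% and 11.1% of all genes, DESeq2 called 0, and the lowest p were those of Kpna2 (-0.99, SE 0.33, adjusted p = 0.158), Mki67 (2.66, SE 0.92, 0.169), Ccnd2 (1.37, SE 0.51, 0.187), Mcm3 (1.25, SE 0.51, 0.21) and E2f1 (-0.85, SE 0.35, 0.214).

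Between control groups of 1 model that differed in age, 1 of the 39 genes passed the test. Kpna2 was higher in type 1 controls at 24 weeks than at 3 weeks by a log2 difference of 1.163 (SE 0.27, adjusted p = 0.0161 by edgeR), where 3.7% of all genes were called, 2.16% higher and 1.55% lower. The call was lost in a fit of only the groups compared. The eNOS-/- controls aged 3 months, the age of the 3-week type 1 controls, averaged 12.3 CPM of Kpna2. Age as the source of the difference was not tested. At an unadjusted p under 0.05 there were 5 of the 39, against 9.53% of all genes higher and 7.99% lower. Of the other cell cycle genes listed below, Cdc6 and Kif2c were higher and the CDK inhibitor gene Cdkn1a lower at 24 weeks (-2.87, SE 0.73, adjusted p = 0.0338 by edgeR). Cdc6 and Kif2c had no count in any 3-week control, and those libraries had counts for fewer genes than the other TRAP controls. Cdkn1a was high in some 3-week controls and low in others, as given below, so its call rests on part of that group. Among type 2 controls, 6 months against 3 months, edgeR and DESeq2 each called 0 of the 39, and edgeR 0% of all genes. At an unadjusted p under 0.05 by edgeR there were 3 of the 39, against 3.14% of all genes (1.76% higher and 1.38% lower). They were Ccna2 (log2 difference -1.37), Aurka (1.01) and Ccne1 (1.55), and their adjusted p by edgeR was 1.

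Beyond the 39, 109 other cell cycle genes of 110 listed were in the table. At 6 months of the type 2 model 15 of 107 tested rose and 7 fell, or 14% and 6.54%, against 11.2% and 11.7% of all genes. Cdc25b, a phosphatase that activates CDK1, rose by 2.31 (SE 0.51, adjusted p = 0.00412 by edgeR), as did Foxm1, a transcription factor of mitotic genes (1.93, SE 0.44, adjusted p = 0.00529), and the chromosome motor gene Kif22 (2.46, SE 0.59, adjusted p = 0.00656). Foxm1 measured 0.946, 4.51, 4.08 and 5.66 CPM in controls and 18.4, 13.0 and 19.8 CPM in diabetic libraries, without overlap. Rbl2, encoding the pocket protein p130 that holds cells in rest, fell (log2 change -0.69, SE 0.17, adjusted p = 0.00696). At 3 months 5 of 107 (4.67%) rose, against 2.03% of all genes, and none fell. Among them were Racgap1, a midzone protein (1.67, SE 0.35, adjusted p = 0.00944), Wee1, a kinase that restrains CDK1 (1.11, SE 0.26, adjusted p = 0.0205), Uhrf1, a keeper of DNA methylation at replication (1.88, SE 0.48, adjusted p = 0.0317), and Cdca5, a sister chromatid cohesion factor (4.47, SE 1.198, adjusted p = 0.0396). Cdca5 had 0, 0, 2, 0 and 2 counts in controls and 10, 19, 5, 59 and 18 in diabetic libraries. Without diabetic libraries 4 and 5 at 3 months none of these other genes passed, and with 1 library left out 1 to 6 rose.

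At 3 weeks of the type 1 model 9 of 104 of these other genes (8.65%) rose, against 3.78% of all genes, and none fell. Uhrf1 went from 2.02, 2.92, 0.643 and 2.57 CPM to 19.1, 23.4, 21.3, 7.81 and 11.3 CPM (log2 change 2.85, SE 0.48, adjusted p = 0.00113 by edgeR). The DNA polymerase gene Pole (2.03, SE 0.46, adjusted p = 0.00972), Cdk6, the kinase partner of D cyclins (0.75, SE 0.18, adjusted p = 0.0124), and Rbl1, encoding p107 (1.18, SE 0.32, adjusted p = 0.0257), also rose. The origin licensing gene Cdc6 and the kinetochore motor gene Kif2c had no count in any control. Their diabetic means were at least 9.95-fold and at least 6.49-fold higher (adjusted p = 0.00417 and 0.00731 by edgeR), against the same limit of 3 counts per control library. These controls had counts for fewer genes than the other TRAP controls, as given above. Without diabetic libraries 1, 2 and 3 none of these other genes passed. At 24 weeks edgeR called 0 of 104, with 8 higher (7.69%, against 6.28% of all genes) and 1 lower at an unadjusted p under 0.05, and DESeq2 called 2 higher.

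The CDK inhibitor genes, which brake the cycle, moved in different directions. Cdkn1a, encoding p21, rose in the type 2 model at 6 months from 2.66, 3.37, 7.88 and 4.51 CPM to 42.4, 67.7 and 109 CPM (log2 change 3.74, SE 0.67, adjusted p = 0.00162 by edgeR). At 3 months it rose from 6.51, 5.78, 3.67, 2.94 and 4.44 CPM to 8.74, 9.83, 6.99, 70.1 and 33.4 CPM (2.34, SE 0.55, adjusted p = 0.0232). All diabetic libraries were above all controls at both ages, but without diabetic library 4 the 3-month change was 1.63 (adjusted p = 0.0594), and without libraries 4 and 5 it was 0.79 (adjusted p = 0.253). In the type 1 model the 3-week controls were split, at 102, 79.6, 5.85 and 2.25 CPM, against 57.6, 60.4, 67.6, 86.0 and 91.7 CPM in diabetic libraries (0.44, adjusted p = 0.791). At 24 weeks Cdkn1a was 11.6, 3.01, 6.09, 6.79 and 9.04 CPM in controls and 29.1, 58.5, 63.6, 35.8 and 32.8 CPM in diabetic libraries, without overlap, and did not pass (2.61, SE 0.70, adjusted p = 0.0934).

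Cdkn1c, encoding p57, an inhibitor that mature podocytes are known to express, fell at 6 months. Its controls held 2501, 1829, 1772 and 1723 CPM and its diabetic libraries 888, 1290 and 656 CPM (log2 change -1.28, SE 0.30, adjusted p = 0.00622 by edgeR), without overlap. The podocyte marker sum was also lower in these diabetic libraries (3235 to 15827 CPM, controls 23112 to 28351). Cdkn1c stood at a ratio of 68.1 in TRAP over whole kidney, as given below. The part of podocyte RNA content in its fall was not tested. It did not pass at 3 months (-0.37, adjusted p = 0.503), 3 weeks (-0.43, adjusted p = 0.481) or 24 weeks (-0.29, adjusted p = 0.834). Cdkn1b, encoding p27, changed by 0.10, -0.19, -0.41 and -0.05 in the 4 comparisons in the order used above and passed in none. Its adjusted p by edgeR was 0.757, 0.358, 0.21 and 0.973.

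**Figure D3:**
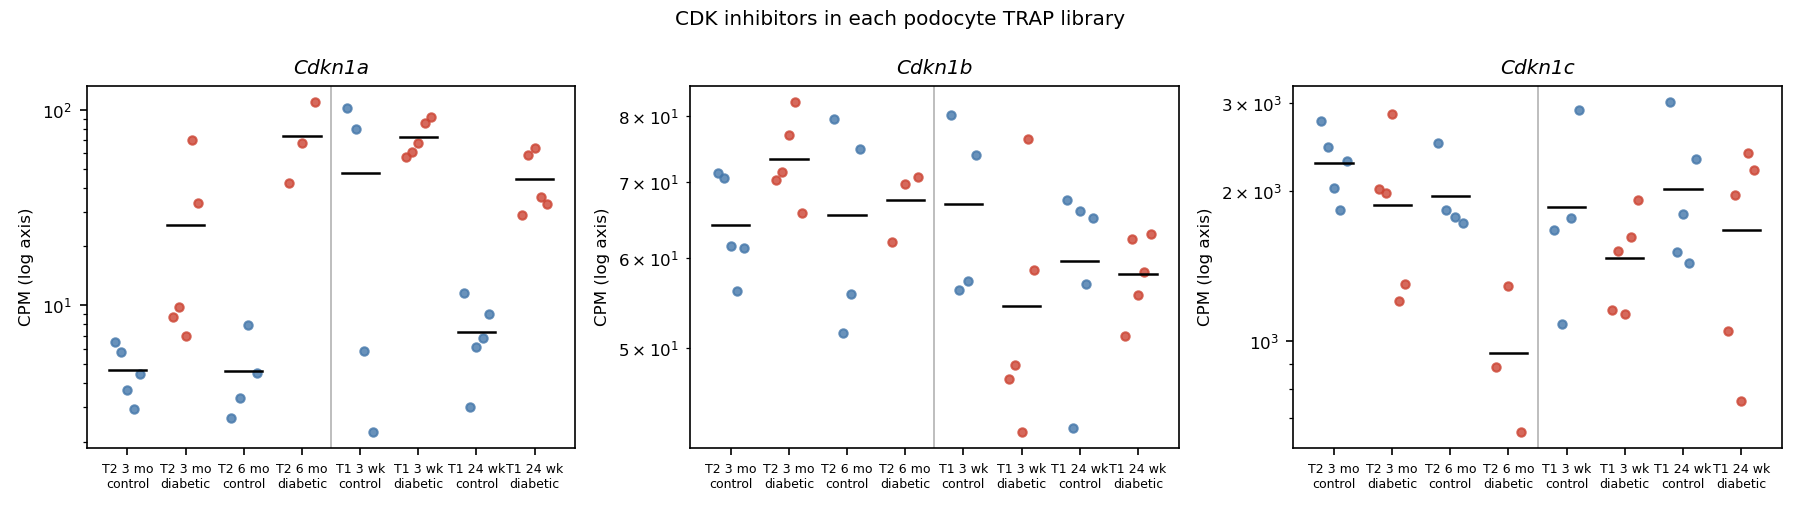
CPM on log axes of the CDK inhibitor genes Cdkn1a, Cdkn1b and Cdkn1c in each TRAP library (blue control, red diabetic); black lines are group means. Cdkn1a lies above the controls in every diabetic library of the type 2 model and at 24 weeks, while the 3-week controls split between 2.25 to 5.85 and 79.6 to 102 CPM; Cdkn1c is lowest at 6 months in diabetic libraries.

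Markers of podocytes and of other cells moved with the cell cycle genes in several libraries. In these bulk libraries, fewer cells of a type and less RNA per cell cannot be told apart. The summed CPM of 36 of the genes, leaving out the abundant Ccnd1, Ccnd2 and E2f1, was 193, 165, 195, 391 and 234 in diabetic libraries at 3 months (controls 124.7 to 150.9) and 255, 241 and 491 at 6 months (controls 123 to 138). In the same libraries the sum of 15 macrophage markers was 69.0, 50.5, 58.1, 402 and 184 CPM (controls 68.9 to 92.0) and 371, 217 and 524 CPM (controls 81.1 to 132). The 11 podocyte markers summed to 26333, 26869, 28219, 15544 and 15300 CPM (controls 21995 to 36323) and to 9507, 15827 and 3235 CPM (controls 23112 to 28351). Libraries 4 and 5 at 3 months and library 3 at 6 months, which were highest in the cell cycle sum, were thus also highest in macrophage markers and lowest in podocyte markers within their groups. In 3-month diabetic libraries 1, 2 and 3 the cell cycle sum was above the controls and the macrophage sum was not. Their mesangial and smooth muscle sums (289, 218 and 218 CPM, controls 136 to 160) were also above the controls. So were their injured tubule sums (32.7, 19.8 and 12.4 CPM, controls 7.27 to 8.67). Their lymphocyte sums lay within the control range (1.35, 1.40 and 1.64 CPM, controls 0.739 to 2.96).

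At 3 weeks of the type 1 model the cell cycle sum was 525, 388, 427, 306 and 305 CPM in diabetic libraries and 113 to 155 CPM in controls. The macrophage sum there was 264, 322, 385, 135 and 127 CPM (controls 57.3 to 117) and the podocyte sum 10315, 11249, 10430, 20508 and 18667 CPM (controls 10069 to 23260). All 5 podocyte sums lay within the control range, those of libraries 1, 2 and 3 near its lower end, which control library 2 sets. Libraries 4 and 5 had macrophage sums slightly above the controls and cell cycle sums of 306 and 305 CPM. At 24 weeks the macrophage sum in diabetic libraries was 149 to 280 CPM (controls 103 to 188) and the cell cycle sum 147 to 179 CPM (controls 105 to 181).

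Other lists moved as well. The 5 injured tubule markers summed to 12.4 to 213 CPM in diabetic libraries at 3 months (controls 7.27 to 8.67), 126 to 307 CPM at 6 months (controls 9.17 to 13.7), 63.7 to 185 CPM at 3 weeks (controls 7.3 to 15.7) and 24.0 to 79.2 CPM at 24 weeks (controls 9.94 to 54.6). Parietal epithelial markers (7 genes) were at 288 to 609 CPM at 6 months (controls 126 to 196) and 207 to 369 CPM at 3 weeks (controls 131 to 201), and mesangial and smooth muscle markers (8 genes) at 218 to 886 CPM at 3 months (controls 136 to 160), and at 6 months and 3 weeks at 292 to 788 CPM (controls 131 to 174) and 175 to 592 CPM (controls 177 to 376). Endothelial markers (9 genes) were at 222 to 528 CPM at 6 months (controls 204 to 275) and 197 to 533 CPM at 3 weeks (controls 179 to 440). Lymphocyte markers (9 genes) were few but also separated the groups where cell cycle genes rose, at 5.50 to 30.0 CPM at 6 months (controls 1.19 to 4.61) and 5.75 to 9.27 CPM at 3 weeks (controls 0.524 to 2.64). They were at 1.35 to 15.9 CPM at 3 months (controls 0.739 to 2.96) and 2.26 to 11.8 CPM at 24 weeks (controls 2.75 to 5.58). Proximal tubule markers (10 genes) summed lower in all diabetic libraries than in all controls at 3 months (3168 to 7353 against 7766 to 11146 CPM), at 6 months (2973 to 6654 against 7883 to 10493 CPM) and at 3 weeks (3485 to 6494 against 8890 to 14119 CPM). The 24-week groups overlapped (4503 to 8459 against 7573 to 11833 CPM). Collecting duct markers were at 220 to 371 CPM at 6 months (controls 128 to 231) and 157 to 347 CPM at 3 weeks (controls 132 to 249.1), and loop and distal tubule markers at 751 to 1319 CPM (controls 876 to 1128) and 1007 to 2048 CPM (controls 958 to 1973), all with overlap. The part of these cells in the levels of the cell cycle genes was not tested.

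**Figure D4:**
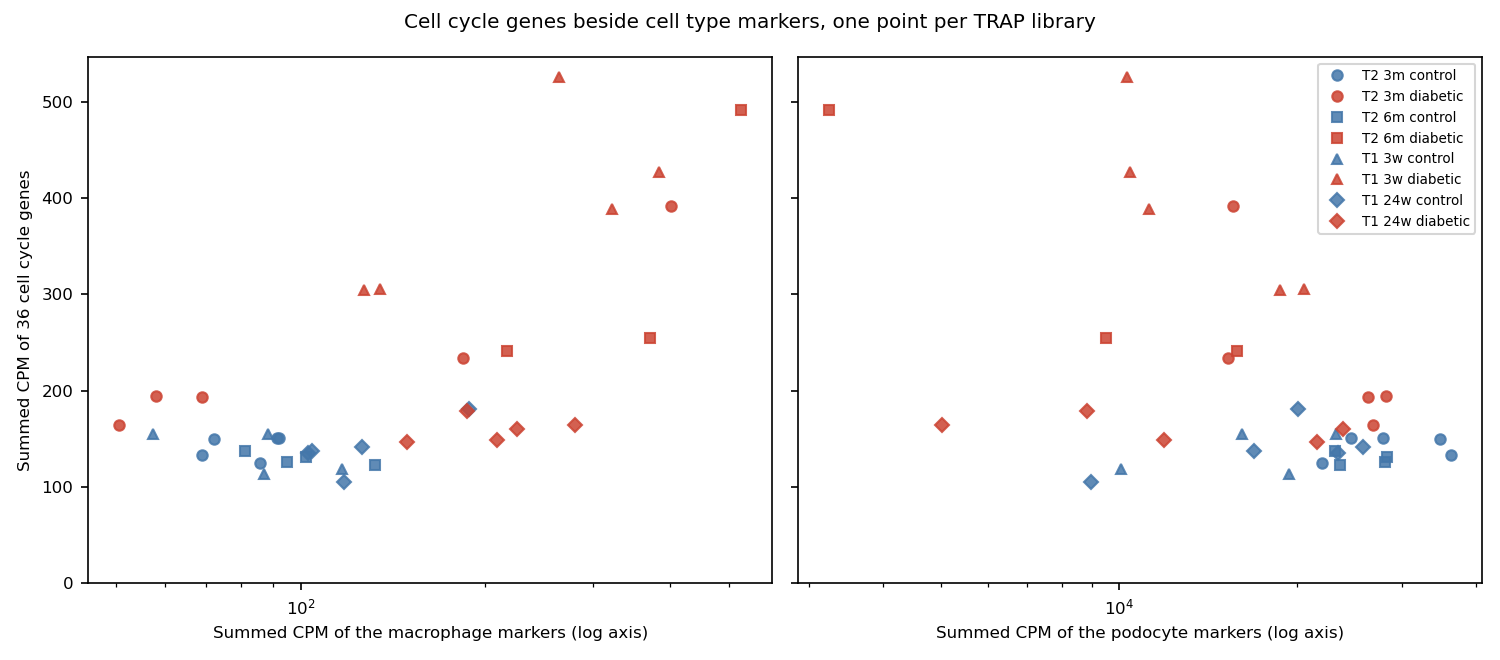
Summed CPM of 36 cell cycle genes (y axis) against the summed CPM of 15 macrophage markers (left, log axis) and 11 podocyte markers (right, log axis), one point per TRAP library (blue control, red diabetic; shape gives model and time). The 3-week type 1 diabetic libraries (red triangles) lie at 305 to 525 on the y axis, and the 24-week ones (red diamonds) at 147 to 179 over a macrophage range of 149 to 280 CPM.

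Against whole kidney, podocyte RNA of the 3-month eNOS-/- controls was not rich in cell cycle messages apart from E2f1. With only 1 kidney library, of total RNA, there is no test, and its intervals cover counting error only. E2f1 measured 107 ± 24.2 CPM (SD, n = 5) in TRAP and 3.10 CPM in kidney (exact Poisson 95% interval 2.49 to 3.83), a ratio of 29.8 on CPM with 0.5 added, which ranks 88 among 15859 genes. By the same ratio the podocyte genes Nphs1 and Wt1 stood at 112.5 and 134.5, and Cdkn1c at 68.1. Rrm1 (1.83) and Mcm4 (1.41) were the other 2 genes with all 5 TRAP libraries above the kidney value, although the lowest library of Mcm4 lay within the kidney's counting interval. All 5 were below the kidney value for 13 genes, in part by less than its counting interval, among them Nusap1 (0.394), Ccnd1 (0.396, with 377 CPM in kidney, interval 370 to 385), Mki67 (0.537, with 13.4 CPM, interval 12.1 to 14.9), Ccnd2 (0.572) and Tk1 (0.621), and the other 23 had TRAP libraries on both sides of the kidney value. In all, 14 genes were higher and 25 lower in TRAP, with a median ratio of 0.83, against 0.99 over all genes. Counts of genes above or below the kidney value are not given over all genes, so those here have no background beside them. Whether these counts are unusual was not tested. The summed CPM of the 36 genes was 162 in kidney, above all of these 5 controls.

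**Figure D5:**
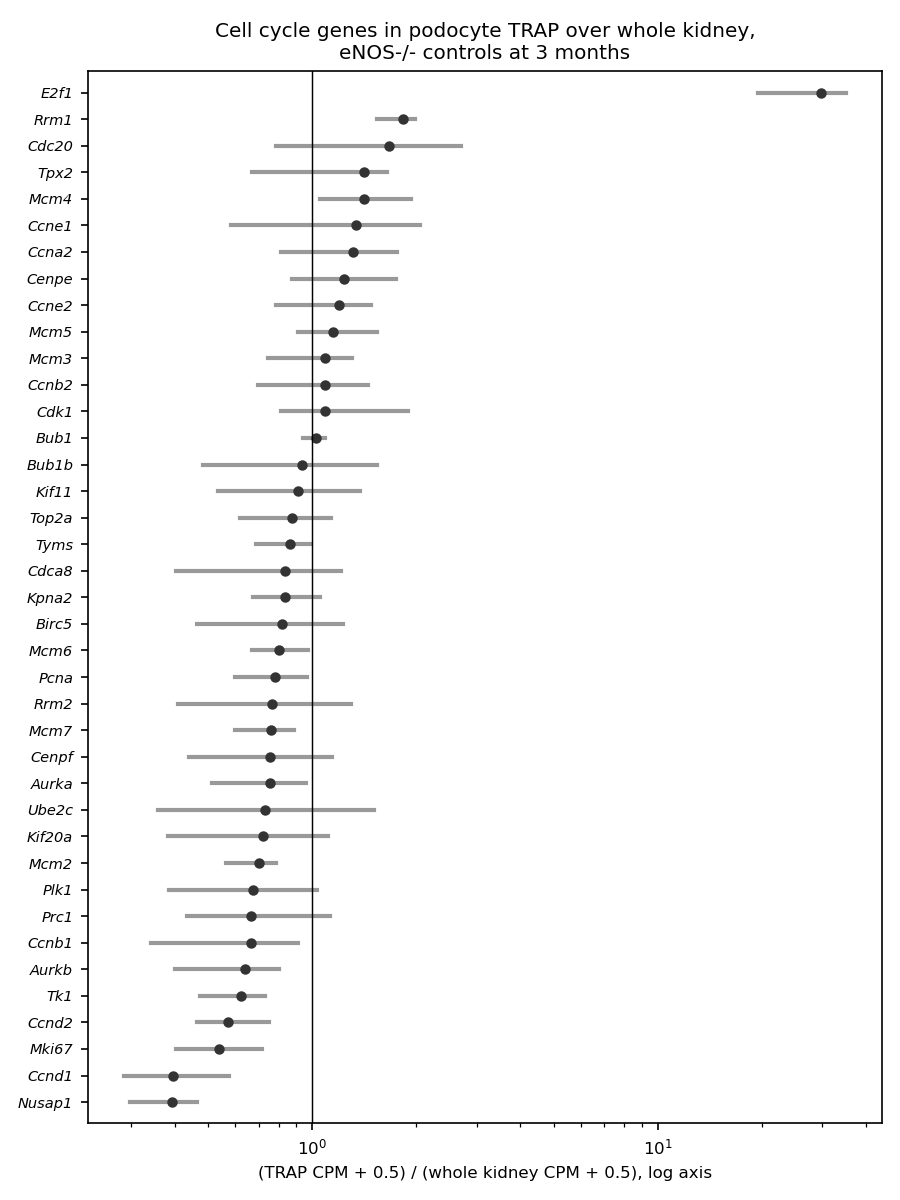
Ratio of TRAP to whole kidney, as CPM + 0.5 over CPM + 0.5 on a log axis, for the 39 genes (points from the mean of the 5 control libraries at 3 months, grey lines from the lowest to the highest library). E2f1 stands at 29.8, and the other genes lie between 0.394 and 1.83.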

How the data were processed

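TRAP RNA was sequenced from 36 mouse podocyte samples and total RNA from 1 whole kidney, per the labels' protocols with a NuGEN Ovation kit after DNase treatment and fragmentation. Tools listed in the submitters' processing notes are featureCounts 1.15.2, cutadapt 1.16, FastQC and STAR, with the build mm9, whereas the coordinates in the tables overlap GRCm38 genes for 99.981% of 31871 matched IDs, and GRCm38 is used here. Raw counts per gene were deposited by the authors and were used as deposited. The authors' deposited FPKM values, which allow for gene length, served for levels between genes and as an alternative, with limma 3.58.1 on log2(FPKM + 0.1) and log2(FPKM + 1).

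The members and gene lists were chosen with earlier results of these data known. Each model was fitted over all its TRAP libraries (17 type 2, 19 type 1) with edgeR 4.0.16 in R 4.3.3 (TMM, filterByExpr with a minimum count of 10, robust quasi-likelihood fit), contrasts between groups, and Benjamini-Hochberg adjustment over the 17180 or 16279 genes tested, called at 0.05. Effects in the 2 models were compared in a fit of all 36 libraries (18511 genes). DESeq2 1.42.0 and other filters, fits and left-out libraries were alternatives. The share of all genes called is given for the main edgeR fits only. CPM used raw library totals. Kidney intervals are exact Poisson and cover counting error only. The scripts were tested on simulated data. The text describes all members by role, gives SE and adjusted p for called members or the 5 of lowest p, always gives Mki67, Top2a, Ccnd1, Ccnd2, Pcna, Mcm3 and Cdkn1a, Cdkn1b and Cdkn1c, and of the other cell cycle genes up to 6 called of lowest p. The promoter table had no entry for Ccnd1, Ccnd2, Ccne2, Mcm4, Ccna2, Aurkb, Kif20a and Tpx2.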

Additional observations from a re-analysis of the deposited data

Results flagged for a closer look

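A gap between 1 library and the rest of its group that is large against the group's range (Dixon's 95% value) was found in 13 of 168 groups of values, over 23 genes and their sum. Chance gives about 1 in 20. The type 2 diabetic group at 6 months, with 3 libraries, was too small for this rule and was not examined. Bub1, whose counts are few, accounts for 5 of them: 2.50 CPM in type 2 diabetic library 4 at 3 months (others 0 to 0.673), 0.0991 CPM in control library 2 at 6 months (others 0), 1.08 CPM in type 1 control library 1 at 3 weeks (others 0), 0 CPM in diabetic library 4 at 3 weeks (others 1.30 to 1.68) and 0.536 CPM in diabetic library 4 at 24 weeks (others 0 to 0.0768). Prc1 was at 11.3 CPM in type 2 diabetic library 4 at 3 months (others 1.01 to 3.93). Tpx2 was low, at 0.623 CPM, in control library 2 at 3 months (others 2.10 to 2.27). Rrm2 was at 2.48 CPM in control library 2 at 6 months (others 0.882 to 0.963).

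In the type 1 model, Top2a was at 33.9 CPM in diabetic library 1 at 3 weeks (others 16.5 to 21.2) and Cenpf at 6.83 CPM in control library 2 (others 0.366 to 0.673). Control library 4 at 24 weeks was high in Mki67 (18.1 CPM, others 4.80 to 8.62) and in Kif11 (4.32 CPM, others 0 to 1.156), and control library 3 in Mcm2 (9.70 CPM, others 7.05 to 7.72). Tested differences between the models were also picked out for 2 genes: Kpna2 at the early times, with a log2 difference of -1.35, and Mki67 at the late times, with 3.78. Both calls were lost in several fits that left out 1 library, as given above.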

How the results depend on the processing

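Counts of most of these genes were few, and calls moved with the fit and with single libraries. Over all pairs of a single-gene result and a setting, 1662 kept direction and side of the threshold, 177 became weaker, 41 stronger and 5 reversed. Results that were not called and stayed so count as kept. Of the 39 genes, 15 were called at 6 months and 14 at 3 weeks. Of these, 4 and 3 were called in every setting. The numbers of 39 genes called higher were, for type 2 at 3 months (0 as reported), 5 with DESeq2, 1 in a fit of all 36 libraries and 1 with only the groups compared. For 6 months (14) they were 7 and 7 in the last pair of fits, and the 1 lower call was 0 with limma on FPKM + 0.1 or + 1 and with all 36. For 3 weeks (14) they were 22 and 24 with limma (+ 0.1, + 1) and 3 without diabetic libraries 1, 2 and 3 (a setting chosen after seeing the data), and for 24 weeks (0) 2 with DESeq2 and 1 with only the groups compared. Leaving out 1 library gave 0 to 1, 6 to 12 (lower 0 to 2), 11 to 16 and 0 to 1. The other cell cycle genes called higher at 3 months (5) were 8 with DESeq2, 3 without a filter, 1 with limma + 1, 3 with all 36, 0 without diabetic libraries 4 and 5, and 1 to 6 with 1 library left out. At 6 months (15 higher, 7 lower) there were 8 higher with only the groups compared, and lower calls were 4 without a filter, 2 with each limma, 4 with all 36 and 2 with only the groups compared, with 7 to 18 higher and 2 to 10 lower when 1 library was left out. At 3 weeks (9) there were 20 with DESeq2, 21 and 18 with limma (+ 0.1, + 1), 16 with all 36, 4 with only the groups compared, 0 without libraries 1, 2 and 3, and 5 to 12 (lower 0 to 1) with 1 left out. At 24 weeks (0) there were 2 with DESeq2, 1 with all 36, 1 with only the groups compared and 0 to 1 with 1 left out. The type 2 difference between ages gave 4 higher and 2 lower without 3-month diabetic libraries 4 and 5, and 0 to 1 each with 1 left out. The type 1 difference (0 lower) gave 5 with DESeq2, 1 with all 36 and 0 to 2 with 1 left out. Type 1 controls (1 higher) gave 2 with DESeq2, 2 with all 36, 0 with only the groups compared and 0 to 2 with 1 left out. The late difference between models (1 higher) gave 2 with DESeq2, 0 without a filter, 0 and 3 with limma (+ 0.1, + 1) and 0 to 2 with 1 left out, and the early one (1 lower) gave 2, 0, 2 and 4 in that order, 0 without diabetic libraries 4 and 5 at 3 months, 0 without 1, 2 and 3 at 3 weeks and 0 to 3 with 1 left out. Genes higher in TRAP than in kidney numbered 13 to 16 with 1 left out. Reversed were Mcm4 at 6 months without diabetic library 2 (-0.018, and up to 1.33 with another library left out), Cdkn1b at 6 months with limma (0.065 with + 0.1, 0.060 with + 1, against -0.19) and at 3 weeks without libraries 1, 2 and 3 (0.023, against -0.41), and Bub1 in type 1 controls, whose 24-week libraries are all at 0, without control library 1 at 3 weeks (0, otherwise down to -5.67 with 1 left out, a fitted value that is no bound). The cause was not tested.

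Same-numbered libraries deviated with correlations of -0.1973 to 0.3843, so the numbers were not taken to pair them. With the replicate block, calls higher were 0, 14, 15 and 1 (Ccnd2) for 3 months, 6 months, 3 weeks and 24 weeks, other cell cycle genes at 3 months were 2, and the early difference between models was 0.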

Other observations

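The ratio of Mki67 to Top2a CPM ran from 0.58 to 18 over the 36 TRAP libraries, with a median of 2.54. Type 2 diabetic library 3 at 6 months, at 243 CPM of Mki67, had a ratio of 12.8, and the highest ratio belonged to control library 3 of the same age, with 0.321 CPM of Top2a.

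The 4 type 1 controls at 3 weeks fell into pairs by several values. Libraries 1 and 2 held 102 and 79.6 CPM of Cdkn1a and 3.03 and 2.92 CPM of Kpna2. Libraries 3 and 4 held 5.85 and 2.25 CPM of Cdkn1a and 7.78 and 8.06 CPM of Kpna2. The summed 36 cell cycle genes were 113 and 119 CPM in the first pair and 155 and 155 CPM in the second.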
